A study of Homo sapiens with 6 samples.

Results

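The replication-dependent histone genes supply the core histones H2A, H2B, H3 and H4 and the linker histone H1 that package newly made DNA. They were taken from the gene table by their current symbols (H1-1 to H1-6, or H2AC, H2BC, H3C or H4C with a number, without pseudogenes), which gave 66 genes of 20263 listed. There were 6 H1, 15 H2A, 19 H2B, 11 H3 and 15 H4 genes. The large cluster on chromosome band 6p22 held 53 of them, 1q21 held 9, 1q42 held 2, and chromosomes 12 (H4C16) and 21 (H2BC12L) held 1 each. H2AC18, H2AC19, H3C2 and H3C3 also fit the rule and were not analysed here.

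These genes are switched on together as cells enter S phase, by NPAT and other factors that gather at the clusters. Most have no introns, and their mRNAs usually end in a short stem-loop bound by SLBP in place of a poly(A) tail. A known minority of transcripts runs past the stem-loop to a later poly(A) site, and such tailed forms are described in differentiated cells in particular.

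The libraries came from U118, an established human glioma line whose label gives the cell type as brain astroblastoma cells, at day 2 of siRNA transfection. The groups were siRIPK2 (siRNA against RIPK2, a kinase downstream of the NOD receptors, 4 libraries), siNC (control siRNA, 1 library) and WT (labelled wild type, with no siRNA named, 1 library). Nothing in the labels tells whether the numbered siRIPK2 libraries came from different siRNAs or from separate cultures. Each p-value against a single control therefore reflects no more than the spread among these libraries, part of which may be technical. Against both controls together, siNC and WT were treated as replicates, so their difference also enters the spread. RNA was selected through its poly(A) tail, so the values describe only histone transcripts that were captured in this way, not total histone mRNA.

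RIPK2, the targeted gene, stood at 3.86, 11.9, 6.27 and 4.32 CPM (counts scaled to library size with TMM factors) in siRIPK2_1 to siRIPK2_4, against 43.4 CPM in siNC and 56.8 CPM in WT. All 4 siRIPK2 libraries lay below both controls. Total counts ranged from 33540619 to 45309423 per library, and a count of 3, taken as the detection floor, stood for 0.0664 to 0.0935 CPM. Of the astrocyte and glioma markers, VIM averaged 6121 CPM and CD44 424 CPM over the 6 libraries, whereas GFAP averaged 0.803 CPM and AQP4 was at 0. The summed level of 5 leukocyte markers was between 0.413 and 1.02 CPM in siRIPK2, 0.530 CPM in siNC and 0.4995 CPM in WT, with AIF1 at 0. Marker sums were 3.93 to 7.36 CPM for epithelium (4 genes), 1.925 to 7.54 CPM for endothelium (4 genes) and 21.7 to 36.1 CPM for neurons (4 genes) in siRIPK2, against 5.17, 6.98 and 19.35 CPM in siNC and 5.13, 4.33 and 22.4 CPM in WT. The part of other cell types in the histone values was not tested.

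The stem-loop itself was searched for in the GENCODE 29 transcripts, because a count for a histone gene with a poly(A) tail may come from RNA that reads through it. The pattern was a stem of 6 base pairs, G:U pairs allowed, that starts with GG and ends with CC, with a loop of 4 bases. The loop had to read T, then T or C, then T, then any base, so those letters were set by the search. It was present in 29 of the 66 histone genes, against 2.02% of the 20224 listed genes with a transcript there. Many transcripts of the other histone genes hold only coding sequence in that annotation, so no match there says nothing of the real mRNA. The sites shown are 1 of each core found, among them those of H2AC6 and H2BC5, which are also in the 4 highest genes below. H4C5, H4C9, H3C6 and H2AC11 were chosen after the sites were seen. Capitals mark stem and loop, and lower case marks 5 bases on either side.
H2AC6 (GRCh38, chr6:26124664-26124689, plus strand): ccaaaGGCTCTTTTCAGAGCCcccct
H2BC5 (GRCh38, chr6:26158582-26158607, plus strand): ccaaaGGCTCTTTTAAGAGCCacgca
H4C5 (GRCh38, chr6:26204996-26205021, plus strand): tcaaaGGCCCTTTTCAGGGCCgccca
H4C9 (GRCh38, chr6:27139649-27139674, plus strand): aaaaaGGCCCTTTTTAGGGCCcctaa
H3C6 (GRCh38, chr6:26225591-26225616, plus strand): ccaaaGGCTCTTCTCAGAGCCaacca
H2AC11 (GRCh38, chr6:27133510-27133535, plus strand): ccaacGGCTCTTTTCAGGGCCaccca

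The core of H2AC6 was the most frequent, in 4 H2A, 8 H2B and 3 H3 genes. The site counted there for H2BC15 (chr6:27865773-27865798) lies just past the end of H2AC16 (chr6:27865355-27865747), which the annotated H2BC15 overlaps. It may be the site of H2AC16, which had no match of its own, so the split between H2A and H2B is uncertain. That of H2BC5 was shared by 3 H2B genes (H2BC4, H2BC5 and H2BC7) and by the H3 gene H3C8. All 8 H4 genes with a site had a core that begins GGCCC, 5 with the core of H4C5 and 3 with that of H4C9. No H2A, H2B or H3 gene with a site had such a core. The loop of H3C6 and the stem of H2AC11, which holds a G:U pair, were each found in that gene alone. Among annotated transcripts that hold the site, the sequence went on after it for at most 1128 bases in H2AC6 and 39 bases in H2BC5.

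The annotated length of a histone gene was used to sort the members. A gene was put in the long form when its longest GENCODE 29 transcript or its RefSeq span, introns included, reached 850 bases. All others were put in the short form, which gave 27 long and 39 short genes. H2BC12, H2BC5, H2BC4 and H3C4 were long through that span alone. The values nearest the limit were 895 bases inside it and 797 bases outside it. The long form held 12 of 19 H2B and 6 of 11 H3 genes, but 3 of 15 H2A, 6 of 15 H4 and 0 of 6 H1 genes.

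Promoters of the 4 highest genes are shown because the members differed by class in which motifs they held. RefSeq promoters (GRCh38.p14) were matched for 60 of the 66 genes and covered 250 bases before to 50 after the start. The motifs searched on both strands were the octamer ATTTGCAT, which the factor OCT1 binds in H2B promoters, TATAA and CCAAT. In the stretches printed no match overlaps another. The octamer was present in 43.3% of histone promoters against 1.77% of all 35116 promoters, TATAA in 91.7% against 20.4%, and CCAAT in 83.3% against 34.6%. A match is a description of letters, not evidence of binding. The 120 bases before the start are printed, with these motifs, or their complements, in capitals.
H2BC12 (chr6:27146859-27146978, minus strand): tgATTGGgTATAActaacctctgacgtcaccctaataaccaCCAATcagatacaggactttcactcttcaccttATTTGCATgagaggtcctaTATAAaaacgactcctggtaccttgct
H1-2 (chr6:26056471-26056590, minus strand): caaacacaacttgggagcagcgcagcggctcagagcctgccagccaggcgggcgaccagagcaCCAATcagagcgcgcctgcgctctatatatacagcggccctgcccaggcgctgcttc
H2AC6 (chr6:26124052-26124171, plus strand): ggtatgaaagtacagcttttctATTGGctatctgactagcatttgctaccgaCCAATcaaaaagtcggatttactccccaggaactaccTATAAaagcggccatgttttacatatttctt
H2BC5 (chr6:26158001-26158120, plus strand): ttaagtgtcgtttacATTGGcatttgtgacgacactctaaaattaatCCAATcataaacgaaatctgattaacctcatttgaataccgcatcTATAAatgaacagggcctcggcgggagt

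The octamer was found in 11 of 14 H2A and 14 of 18 H2B promoters, in 1 of 9 H3 promoters and in 0 of 6 H1 and 0 of 13 H4 promoters. The H3 match was in H3C4, whose promoter as used here is the same stretch as that of H2AC7, so this stretch counts in both classes. A second RefSeq entry for H3C4 was not used and holds no octamer. H2BC12 carries it within the printed stretch, and H2AC6 outside that stretch. Promoters of head-to-head H2A and H2B genes can overlap, and then the same octamer counts in both classes. This was so for H2AC1 with H2BC1, H2AC7 with H2BC7, H2AC8 with H2BC8 and H2AC11 with H2BC11. It was also so for H2AC14 with H2BC14, H2AC17 with H2BC17 and H2AC20 with H2BC21. Most octamers counted for H2A promoters are therefore also counted for an H2B promoter, and the promoters counted are not all separate sites. CCAAT was in every H1, H2A, H2B and H3 promoter matched but in 3 of 13 H4 promoters.

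Histone transcripts were a very small share of these libraries. They took 0.00554% of all counts in siRIPK2_1 (95% exact binomial interval 0.00531% to 0.00578%), 0.0104% in siRIPK2_2 (0.0101% to 0.0107%), 0.00893% in siRIPK2_3 (0.00866% to 0.00921%) and 0.0201% in siRIPK2_4 (0.0197% to 0.0206%). The share was 0.0079% in siNC (0.0076% to 0.0082%) and 0.00853% in WT (0.00823% to 0.00884%). The intervals cover counting error only. The siRIPK2_4 share was the highest and the siRIPK2_1 share the lowest of the 6, with both controls between them. In bulk RNA, fewer cells that make histone RNA and less of it per cell cannot be told apart.

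Of the 66 genes, 56 had at least 1 count and 10 were at 0 in every library. Among the 10 were H1-6, H2AC1 and H2BC1, which encode histones known from the testis, along with H1-1, H2AC15, H2BC3, H2BC26, H4C6, H4C7 and H4C13. A count of 0 allows a level up to the floor given above. Only 4 genes averaged 5 CPM or more, and together they took 59.1% of the histone counts. A further 15 averaged between 1 and 5 CPM, and 37 were detected below 1 CPM. All 9 genes of 1q21 were detected, as were 44 of 53 in 6p22 and 1 of 2 in 1q42.

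**Figure D1:**
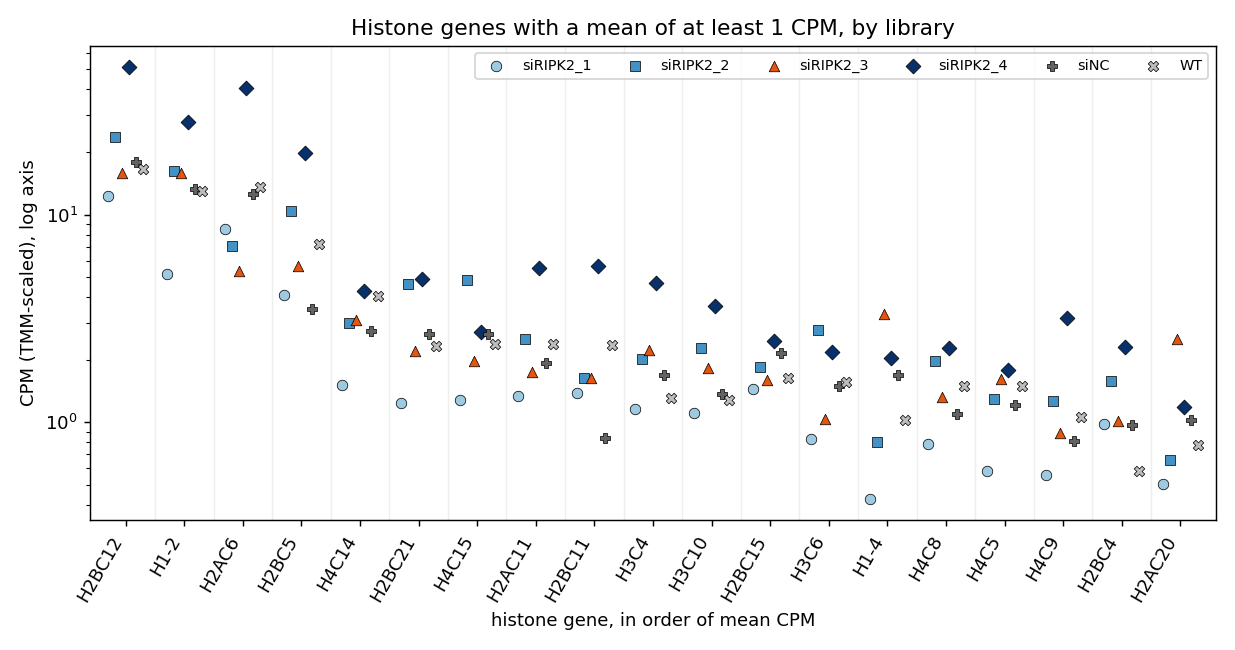
Each point is 1 library's level (CPM, log axis) of a histone gene, for the 19 genes with a mean of at least 1 CPM, ordered by that mean. The siRIPK2_4 diamonds are the highest point for 15 of the 19 genes, from 51.04 CPM for H2BC12 to 1.79 CPM for H4C5.

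The linker histone gene with the most counts was H1-2 (ENSG00000187837, 6p22, chr6:26055787-26056428, GRCh38), which encodes histone H1.2. It was at 5.145, 16.25, 15.9 and 27.8 CPM in siRIPK2_1 to siRIPK2_4, against 13.3 CPM in siNC and 13.01 CPM in WT. The siRIPK2_1 value was below both controls and the other siRIPK2 values above them, so the groups overlapped. The log2 fold change against both controls was 0.30 (SE 0.53), with an adjusted p of 0.9998 in edgeR's quasi-likelihood test. Without siRIPK2_4 it was -0.08.

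H1-4 and H1-5, which encode H1.4 and H1.5, followed another order across libraries. H1-4 was at 0.429, 0.802, 3.32 and 2.035 CPM in siRIPK2_1 to siRIPK2_4, against 1.68 CPM in siNC and 1.03 CPM in WT. H1-5 was at 0.580, 0.437, 1.79 and 1.155 CPM in the same libraries, against 1.12 CPM in siNC and 0.583 CPM in WT. Both were highest in siRIPK2_3. H1-3 had 2 counts in all, both in siRIPK2_1.

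The highest H2A gene was H2AC6 (ENSG00000180573, 6p22, chr6:26124145-26139116). It was at 8.55, 7.02, 5.36 and 40.9 CPM in siRIPK2_1 to siRIPK2_4, against 12.5 CPM in siNC and 13.5 CPM in WT. The siRIPK2_4 value was 3.27 times that of siNC, and the other siRIPK2 libraries lay below both controls. The log2 fold change against both controls was 0.25 (SE 0.76, adjusted p of 0.9998 in edgeR). Without siRIPK2_4 it was -0.90, so a single library set its direction.

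Other H2A genes stood far lower. H2AC11 was at 1.34, 2.50, 1.75 and 5.53 CPM in siRIPK2_1 to siRIPK2_4, against 1.93 CPM in siNC and 2.39 CPM in WT. It too was highest in siRIPK2_4. H2AC20, on 1q21, was at 0.504, 0.656, 2.50 and 1.18 CPM in siRIPK2, against 1.03 CPM in siNC and 0.777 CPM in WT, with its highest value in siRIPK2_3. Of the remaining H2A genes the highest, H2AC16, averaged 0.664 CPM.

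The highest member of all was H2BC12 (ENSG00000197903, 6p22, chr6:27146418-27146798), an H2B gene. It was at 12.2, 23.6, 15.8 and 51.04 CPM in siRIPK2_1 to siRIPK2_4, against 17.9 CPM in siNC and 16.65 CPM in WT. In siRIPK2_2 and siRIPK2_4 it was above both controls, and in siRIPK2_1 and siRIPK2_3 below both. The log2 fold change against both controls was 0.57 (SE 0.53, adjusted p of 0.9998 in edgeR), and it was -0.0032 without siRIPK2_4. Of its 75-base stretches 42.3% also occur in H2BC12L on chromosome 21, so some of its reads could have been counted there, although H2BC12L averaged 0.136 CPM.

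H2BC5 (ENSG00000158373, 6p22, chr6:26158146-26171349) was at 4.11, 10.4, 5.65 and 19.85 CPM in siRIPK2_1 to siRIPK2_4, against 3.52 CPM in siNC and 7.19 CPM in WT. All siRIPK2 libraries were above siNC, whereas siRIPK2_1 and siRIPK2_3 were below WT. Its log2 fold change against both controls was 0.90 (SE 0.63, unadjusted p of 0.189 in edgeR). It was 0.33 without siRIPK2_4, 0.49 without siNC and 1.501 without WT. H2BC11, whose product is also H2B, was at 1.39, 1.63, 1.64 and 5.66 CPM in siRIPK2, against 0.842 CPM in siNC and 2.36 CPM in WT. Its siRIPK2_4 value was above every other library and the remaining siRIPK2 values lay close together.

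H2BC4 was 1 of 2 tested histone genes with every siRIPK2 library above both controls. It was at 0.984, 1.58, 1.02 and 2.31 CPM in siRIPK2_1 to siRIPK2_4, against 0.966 CPM in siNC and 0.583 CPM in WT. The margin over siNC in siRIPK2_1 was small. Its log2 fold change was 1.33 against WT (SE 0.74, unadjusted p of 0.113 in edgeR) and 0.60 against siNC.

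H3C8 was the other such gene, at 0.378, 0.340, 0.487 and 0.550 CPM in siRIPK2_1 to siRIPK2_4, against 0.249 CPM in siNC and 0.305 CPM in WT. These levels rest on 14 to 22 counts in each siRIPK2 library, 8 in siNC and 11 in WT. Among all 14306 genes tested, 4.96% had every siRIPK2 library above both controls, so 2 of 41 histone genes was close to the background. For every siRIPK2 library below both controls the background was 5.5%, and 0 of 41 histone genes did so.

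Within H3, H3C4 and H3C10 led with means of 2.18 and 1.91 CPM over the 6 libraries. H3C10 was at 1.11, 2.28, 1.82 and 3.63 CPM in siRIPK2_1 to siRIPK2_4, against 1.37 CPM in siNC and 1.28 CPM in WT. The siRIPK2_1 value was below both controls and the other siRIPK2 values above them. H3C4 lies wholly within sequence shared with a listed read-through gene, and its value is uncertain for that reason. H3C14 and H3C15 are the same in every 75-base stretch, and their counts (207 and 202 in total) are reads of both copies. Whether the same reads were counted for both is not known. The sums and counts of genes below take such copies as separate genes.

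The H4 genes are known to encode nearly always the same protein from different DNA. H4C14 and H4C15 on 1q21 averaged 3.12 and 2.64 CPM over the 6 libraries, but 96.2% and 97.1% of their stretches are shared, so the split between them is uncertain. H4C9 was at 0.555, 1.26, 0.886 and 3.19 CPM in siRIPK2_1 to siRIPK2_4, against 0.810 CPM in siNC and 1.05 CPM in WT. It was highest in siRIPK2_4. H4C11 and H4C12 also share sequence (79.6% and 100% of stretches) and had 211 and 196 counts in total, with both highest in siRIPK2_3.

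Several of the lowest unadjusted p-values belonged to genes with few counts. H4C2 was at 0.227, 0.340, 0.775 and 0.275 CPM in siRIPK2_1 to siRIPK2_4, against 0.0623 CPM in siNC (2 counts) and 0.25 CPM in WT, with a log2 fold change against siNC of 2.64 (SE 1.28, unadjusted p of 0.0739 in edgeR). H4C16, on chromosome 12, was at 0.404, 0.486, 0.399 and 0.495 CPM in siRIPK2, against 0.125 CPM in siNC (4 counts) and 0.555 CPM in WT. The siRIPK2 and WT values of H4C16 lay close together and siNC below them. Its log2 fold change was 1.81 against siNC (unadjusted p of 0.0774 in edgeR) and -2.13 for siNC against WT (unadjusted p of 0.0725).

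H4C3 had the lowest p against both controls. It was at 0.126, 0.292, 0.487 and 1.10 CPM in siRIPK2_1 to siRIPK2_4, against 0.125 CPM in siNC and 0.1665 CPM in WT. The log2 fold change was 1.75 (SE 0.92, unadjusted p of 0.0907 in edgeR), and siRIPK2_1 lay between the controls. Without siRIPK2_4 the log2 fold change was 1.04.

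H2AC13 came second by p in that comparison. It was at 0.303, 0.486, 0.642 and 0.935 CPM in siRIPK2_1 to siRIPK2_4, against 0.312 CPM in siNC and 0.222 CPM in WT. The log2 fold change was 1.14 (SE 0.63, unadjusted p of 0.104 in edgeR), with siRIPK2_1 below siNC. Of its stretches 60.1% also occur in H2AC14.

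H2BC13 was at 0.151, 0.0486, 0.177 and 0.138 CPM in siRIPK2_1 to siRIPK2_4, against 0.312 CPM in siNC (10 counts) and 0 in WT. Its siRIPK2 counts were 6, 2, 8 and 5, so siRIPK2_2 lay under the 3-count floor. The gene passed the filter on low counts (minimum count 10) through siNC alone, so its p-values cannot serve as support. Set against the 3-count floor of the WT library, the siRIPK2 mean was at least 1.55-fold higher and siNC at least 3.75-fold higher. The unadjusted p in edgeR was 0.0472 for siRIPK2 against WT and 0.0223 for siNC against WT. No other tested histone gene was below 0.05 in any comparison.

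Summed over each class, the same library stood out. H2B genes summed to 23.7, 46.3, 31.7 and 91.6 CPM in siRIPK2_1 to siRIPK2_4, against 31.1 CPM in siNC and 33.0 CPM in WT. H2A genes summed to 12.2, 11.9, 13.8 and 51.8 CPM in siRIPK2, against 17.7 CPM in siNC and 18.45 CPM in WT. For H2A the 3 other siRIPK2 libraries were below both controls. Without H2AC6 the H2A sum was 3.68, 4.91, 8.39 and 10.9 CPM in siRIPK2_1 to siRIPK2_4, against 5.17 CPM in siNC and 4.94 CPM in WT, so that siRIPK2_3 and siRIPK2_4 were above both controls.

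H1 genes summed to 6.20, 17.5, 21.02 and 31.0 CPM in siRIPK2_1 to siRIPK2_4, against 16.1 CPM in siNC and 14.6 CPM in WT. Without H1-2 the H1 sum was 1.06, 1.24, 5.12 and 3.19 CPM in siRIPK2, against 2.805 CPM in siNC and 1.61 CPM in WT, with siRIPK2_3 the highest. For H3 the sums were 5.55, 9.04, 9.46 and 14.0 CPM in siRIPK2, against 6.79 CPM in siNC and 5.91 CPM in WT. In all 5 classes, with every gene included, siRIPK2_4 had the highest sum, and in 4 of them siRIPK2_1 the lowest. H4 genes summed to 6.58, 15.1, 13.7 and 17.65 CPM in siRIPK2, against 10.9 CPM in siNC and 12.7 CPM in WT.

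**Figure D2:**
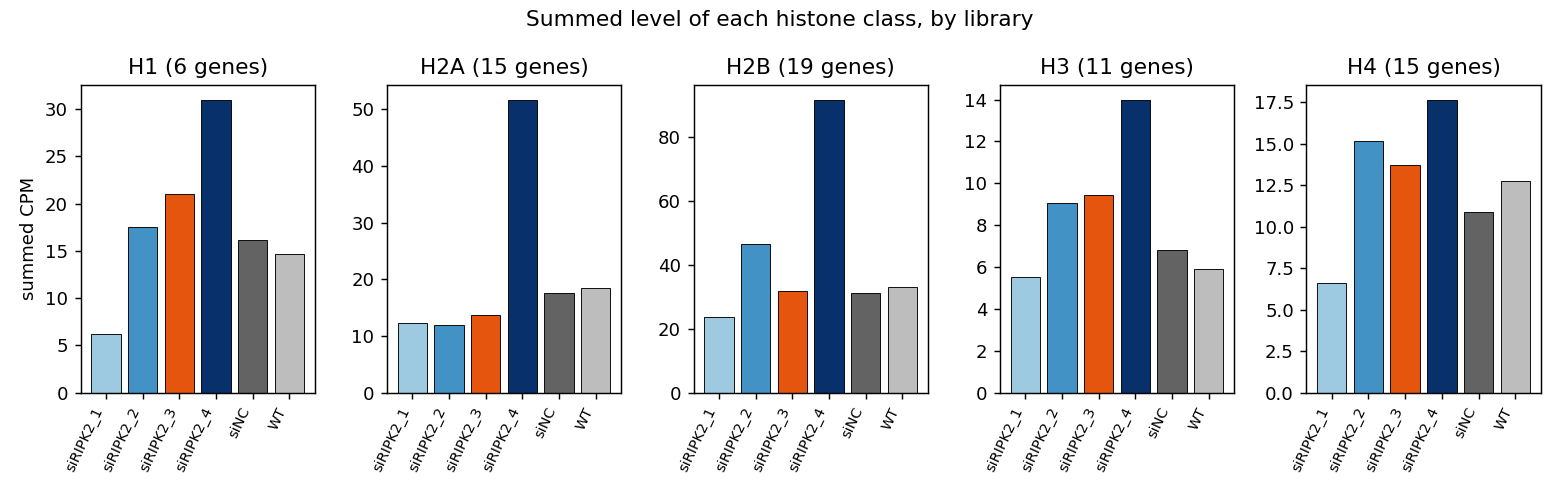
Bars give the summed CPM of all listed genes of a histone class in each library, with an axis of its own per class starting at 0. The siRIPK2_4 bar is the tallest in every panel, at 91.6 CPM for H2B and 51.8 CPM for H2A.

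All 66 genes together summed to 112 ± 65.3 CPM in siRIPK2 (SD, n = 4), against 82.6 CPM in siNC and 84.7 CPM in WT. The siRIPK2 mean was 1.36 times siNC and 1.33 times WT, and both differences were smaller than the SD. Leaving out siRIPK2_4 gave a mean of 81.3 CPM, 0.984 times siNC and 0.959 times WT. By locus, 6p22 summed to 46.7, 84.02, 74.4 and 188 CPM in siRIPK2_1 to siRIPK2_4, against 70.6 CPM in siNC and 72.4 CPM in WT. The 1q21 genes summed to 7.06, 15.3, 14.7 and 17.3 CPM in siRIPK2, against 11.7 CPM in both siNC and WT. That sum takes H3C14 and H3C15, and H4C14 and H4C15, as separate genes although they share sequence. At both loci siRIPK2_4 was highest and siRIPK2_1 lowest. The 4 genes at other loci summed to 0.454, 0.632, 0.554 and 0.660 CPM in siRIPK2, against 0.312 CPM in siNC and 0.694 CPM in WT, with WT highest.

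For the test across genes, 41 histone genes passed the filter on low counts in the fit with 3 groups (3 H1, 8 H2A, 12 H2B, 8 H3 and 10 H4) and 38 in the fit of siRIPK2 against both controls. The 25 and 28 left out had too few counts. In the fit with 3 groups, H3C7 and H2AC21 passed with 10 or more counts in siRIPK2_3 alone, and H2BC13 in siNC alone. The highest library of these genes was thus set by the filter, and the fit against both controls left them out. No histone gene passed an adjusted p of 0.05 in edgeR's quasi-likelihood test, and neither did any other gene, so the background of calls was 0.0% in each of the 4 comparisons. RIPK2 was not called either, at 3.86 to 11.9 CPM in siRIPK2 against 43.4 CPM in siNC and 56.8 CPM in WT. The lack of calls therefore does not show that histone genes were unchanged. DESeq2 and limma-voom also called 0 histone genes in each comparison. Over all genes DESeq2 called 69 higher and 5 lower against siNC, 5 and 4 against WT, 9 and 2 against both controls and 3 and 8 for siNC against WT, while limma-voom called 1 lower gene against WT and 0 elsewhere.

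Against siNC, 0 of 41 histone genes had an unadjusted p under 0.05, where 4.77% of all genes did. Their fold change was above 0 for 31 of 41, against 51.7% of all 14306 genes, and its median was 0.47 on the log2 scale, against 0.02 over all genes. Without siRIPK2_4 the median was 0.15 and 25 of 41 were higher, without siRIPK2_1 the median was 0.63, and in limma-voom it was 0.28. No other library moved this median as far as siRIPK2_4 did.

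Against WT, 1 of 41 histone genes (H2BC13) had an unadjusted p under 0.05, where 1.08% of all genes did. Higher values were found for 37 of 41, against 51.9% of all genes, with a median log2 fold change of 0.49, against 0.01 over all genes. The median was 0.39 without siRIPK2_4, with 28 of 41 higher, and 0.74 without siRIPK2_1. In limma-voom 31 of 41 were higher. Since both comparisons use the same siRIPK2 libraries, the second is no repeat of the first.

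Against both controls together, 0 of 38 histone genes had an unadjusted p under 0.05, where 2.55% of all genes did. Of the 38, 33 were higher, against 52.1% of 13901 genes, and the median log2 fold change was 0.48, against 0.01 over all genes. It was 0.15 without siRIPK2_4, with 26 of 38 higher. In siNC against WT, 1 of 41 (H2BC13) had an unadjusted p under 0.05, where 2.73% of all genes did, and 23 of 41 were higher, against 49.6% of all genes. That median was 0.10, against -0.0017 over all genes. H2BC13 passed the filter through siNC alone, so its p-value for siNC against WT cannot serve as support.

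The siRIPK2 libraries differed from each other in which histone genes they held most of. The highest of the 6 libraries was siRIPK2_4 for 24 of 41 tested histone genes, against 16.3% of all genes, and siRIPK2_3 for 12 of 41, against 20.4% of all genes. H3C7 and H2AC21, which passed the filter through siRIPK2_3 alone, are among these 12. Conversely siRIPK2_1 was the lowest library for 21 of 41, against 21.5% of all genes. H2B genes were highest in siRIPK2_4 in 10 of 12 cases.

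The split went along with the annotated form. Form and class go together, with 12 of 19 H2B genes long but 0 of 6 H1 genes, and their parts were not tested. H2BC12, H2BC5, H2BC4 and H3C4, long through the RefSeq span alone, were all highest in siRIPK2_4. Among 24 tested long-form genes, 18 were highest in siRIPK2_4 and 2 in siRIPK2_3, while among 17 short-form genes 6 were highest in siRIPK2_4 and 10 in siRIPK2_3. The 10 include H3C7 and H2AC21, which passed the filter through siRIPK2_3 alone, and H4C11 and H4C12, which share sequence. The 2 long-form genes are H3C14 and H3C15, which also share sequence. The level in siRIPK2_3 was above that in siRIPK2_4 for 3 of 24 long-form and 11 of 17 short-form genes, and for 7322 of all 14306 genes. H1-2, the only short-form gene that averaged 5 CPM or more, was highest in siRIPK2_4. The next short-form gene by mean, H1-4, averaged 1.55 CPM.

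Set against the mean of both controls on the log2(CPM + 0.5) scale, siRIPK2_3 was higher for all 17 short-form genes and for 14 of 24 long-form genes, 31 of 41 together, where 51.4% of all genes were. In siRIPK2_4 the same held for 14 of 17 and 23 of 24, 37 of 41 together, against 51.1% of all genes. In siRIPK2_1 only 12 of 41 were higher, against 50.3%, and in siRIPK2_2 22 of 41, against 50.9%. Long-form genes had a median difference of -0.26, 0.23, 0.14 and 0.68 in siRIPK2_1 to siRIPK2_4, and short-form genes of -0.18, -0.07, 0.59 and 0.27. These groups of genes rest on annotated lengths, the libraries were compared after their values were seen, and the difference has no replicate test. The 17 short-form genes include H3C7 and H2AC21, which passed the filter through siRIPK2_3 alone.

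**Figure D3:**
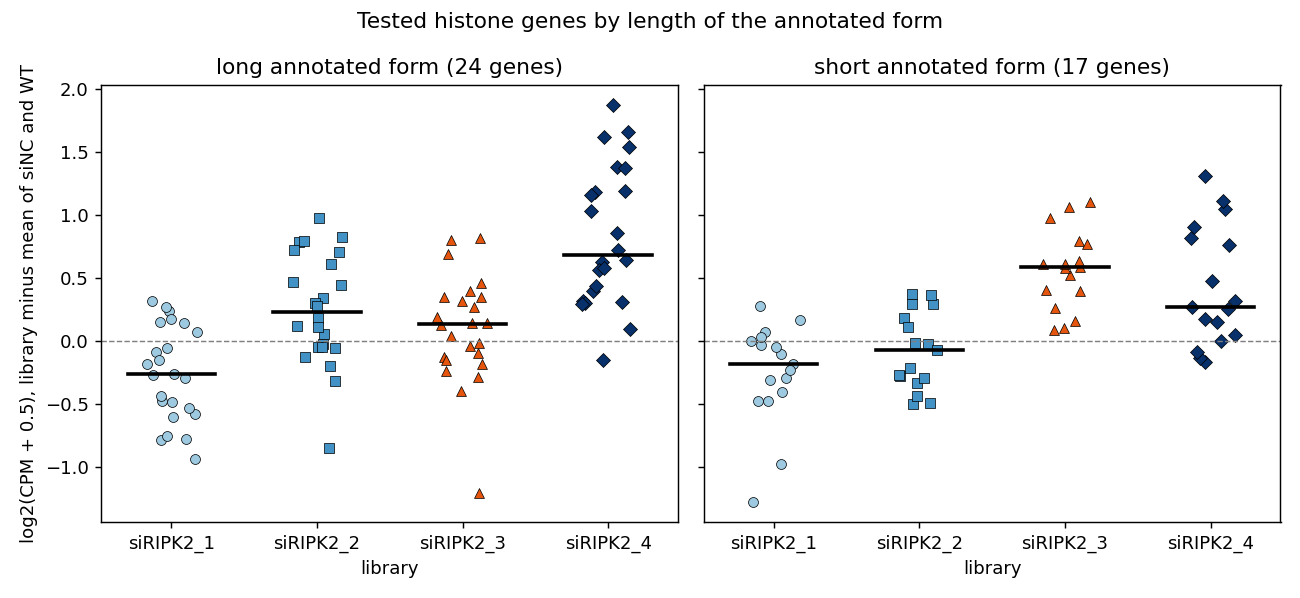
Each point is a tested histone gene, as the log2(CPM + 0.5) of an siRIPK2 library minus the mean of siNC and WT, with long-form genes on the left and short-form genes on the right. Black bars are medians, which are highest in siRIPK2_4 for the long form (0.68) and in siRIPK2_3 for the short form (0.59).

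As sums, the long-form genes came to 43.35, 76.7, 55.6 and 164 CPM in siRIPK2_1 to siRIPK2_4, against 59.4 CPM in siNC and 64.5 CPM in WT. Short-form genes came to 10.9, 23.2, 34.1 and 41.7 CPM in siRIPK2, against 23.2 CPM in siNC and 20.2 CPM in WT, again with siRIPK2_4 the highest. Short-form genes without H1-2 came to 5.75, 6.95, 18.2 and 13.9 CPM in siRIPK2, against 9.82 CPM in siNC and 7.16 CPM in WT. In this smaller sum siRIPK2_3 was the highest library. Long-form genes without H2BC12, H2AC6 and H2BC5 came to 18.5, 35.7, 28.7 and 52.5 CPM in siRIPK2, against 25.5 CPM in siNC and 27.2 CPM in WT, with siRIPK2_4 still the highest.

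Histone genes that lie head to head share the stretch between their starts, and 12 such pairs had starts at most 1000 bases apart. In 11 of them an H2A gene faced an H2B gene, and in the other H3C12 faced H2BC17, which also faces H2AC17. In 5 of them both genes were tested. H2BC4 and H2AC6 (219 bases between starts), H2BC11 and H2AC11 (292 bases) and H2AC17 and H2BC17 (314 bases) had both partners highest in siRIPK2_4. H2BC21 was highest in siRIPK2_4 and its partner H2AC20 in siRIPK2_3, although they start 323 bases apart. H2BC13, which passed the filter through siNC alone, was highest in siNC and its partner H2AC13 in siRIPK2_4. As siRIPK2_4 was the highest library for 24 of 41 tested histone genes, against 16.3% of all genes, a shared highest library is not particular to pairs. Whether partners move together was not tested. Of the stretches of H2AC17, 85.3% also occur in H3C12.

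Genes that make, process or escort histones were listed for comparison, and 0 members of each list passed an adjusted p of 0.05 in edgeR. Over all genes tested, 52.1% were higher against both controls together, 51.7% against siNC alone and 51.9% against WT alone. Every siRIPK2 library was above both controls for 4.96% of all genes and below both for 5.5%. Most genes named from the lists were picked for a low p. Of 9 genes of histone gene transcription (factors, the kinase CDK2 and the cyclins CCNE1 and CCNE2), 5 were higher in the fit of siRIPK2 against both controls together, with a median log2 fold change of 0.08. Against each control alone, 5 were higher than siNC and 3 higher than WT, with a median of -0.17 against WT. NPAT, the S-phase activator of histone genes, was at 35.4, 25.1, 28.55 and 23.8 CPM in siRIPK2_1 to siRIPK2_4, against 16.1 CPM in siNC and 29.3 CPM in WT. Its partner CASP8AP2 (FLASH) was at 27.01, 16.9, 23.9 and 14.2 CPM, against 7.23 CPM in siNC and 23.45 CPM in WT. For both genes siNC was the lowest library, while WT lay within the siRIPK2 range.

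Of 25 genes of histone mRNA processing and decay, 20 were higher in the fit against both controls together (median log2 fold change 0.14), 17 against siNC alone and 20 against WT alone. SLBP was at 98.7, 62.7, 81.0 and 73.2 CPM in siRIPK2_1 to siRIPK2_4, against 82.2 CPM in siNC and 84.5 CPM in WT, with the controls inside the siRIPK2 range. ZNF473, a component of the U7 processing machinery, was at 23.5, 20.3, 26.2 and 19.7 CPM, against 13.9 CPM in siNC and 18.9 CPM in WT. It was above both controls in every siRIPK2 library (unadjusted p of 0.111 against both controls in edgeR).

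Of 18 histone chaperones, 15 were higher in the same fit (median 0.10), 12 against siNC alone and 10 against WT alone. ASF1A, which carries H3 and H4, was at 38.7, 33.2, 27.6 and 47.8 CPM in siRIPK2_1 to siRIPK2_4, against 25.9 CPM in siNC and 26.8 CPM in WT, so every siRIPK2 library was above both controls (unadjusted p of 0.104 in edgeR).

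The replication-independent variants, whose mRNAs carry a poly(A) tail as a rule, had 2 of 9 tested genes higher in the fit against both controls together (median log2 fold change -0.15). Against siNC alone 2 of 10 were higher, and against WT alone 6 of 10, with a median of 0.04. H2AZ2, which encodes an H2A.Z variant, was at 149, 103, 92.1 and 130.1 CPM in siRIPK2_1 to siRIPK2_4, against 206 CPM in siNC and 174 CPM in WT. Every siRIPK2 library was below both controls. The log2 fold change was -0.68 (unadjusted p of 0.02, adjusted over all genes 0.9998 in edgeR).

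S phase itself was followed through 33 genes, of which 9 were higher in the fit against both controls together (median log2 fold change -0.10) and 12 against each control alone. They summed to 5141, 2863, 4103 and 4051 CPM in siRIPK2_1 to siRIPK2_4, against 4410 CPM in siNC and 4199 CPM in WT. The library with the highest S phase sum, siRIPK2_1, had the lowest histone sum, and siRIPK2_4 with the highest histone sum was below both controls in the S phase sum. What part S phase has in the histone values was not tested.

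**Figure D4:**
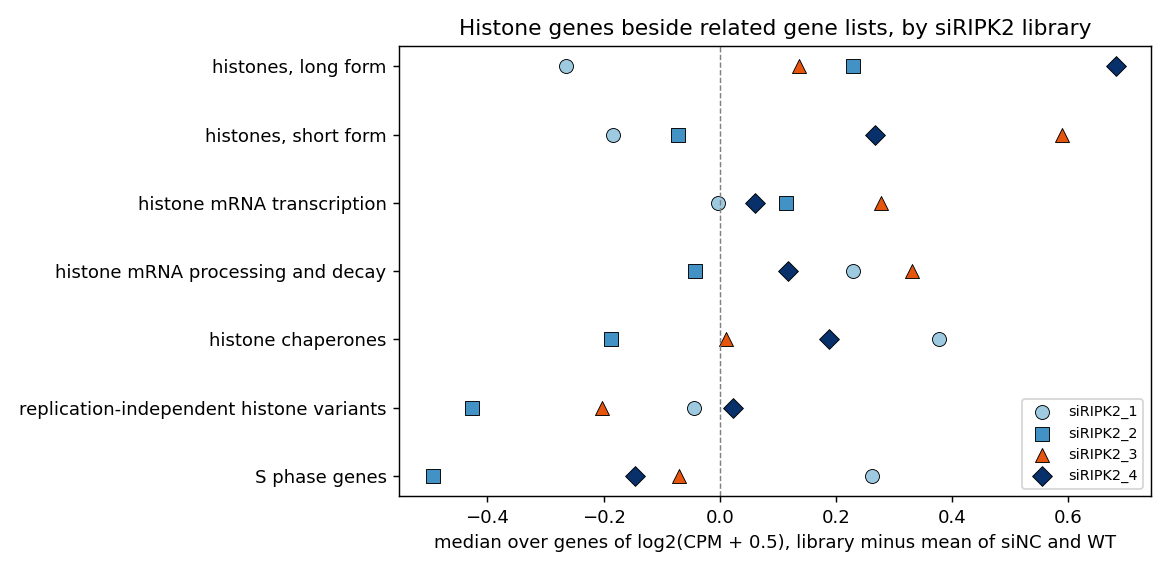
Each point is the median over a gene list of log2(CPM + 0.5) in an siRIPK2 library minus the mean of siNC and WT. Histone genes reach 0.68 in siRIPK2_4 (long form) and 0.59 in siRIPK2_3 (short form), whereas S phase genes lie at 0.26 in siRIPK2_1 and below 0 in the other siRIPK2 libraries.

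Levels between genes can be set side by side only per length. On the scale of CPM per kilobase of GENCODE 29 exon, H2BC12 averaged 60.03 over the 6 libraries, H1-2 23.7, H2BC5 9.71 and H2AC6 8.77. H2BC12 has only 381 bases there but spans 8566 bases in RefSeq, introns included, so its place depends on which form was counted. The annotation used for the deposited counts is not given in the sources used here.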

How the data were processed

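RNA sequencing counts from 6 libraries of U118 cells were analysed. Per the labels' protocols, oligo-dT enriched the mRNA, which was fragmented before random-primed cDNA synthesis. The values that the authors deposited are raw counts, 1 per Ensembl ID and library, without normalization. The tools named in the submitters' processing notes are HISAT2, bedtools, FastQC and Trimmomatic, with the build GRCh38. The sources used here do not give versions, annotation or strand setting, so overlapping and antisense genes cannot be told apart, and 13 of 66 histone genes overlap a listed gene.

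Symbols were matched for 20148 of 20263 IDs. The members and gene lists were chosen with earlier results of these data known. The quasi-likelihood test of edgeR 4.0.16 (R 4.3.3) was applied to the counts after TMM scaling and filterByExpr (minimum count 10), with Benjamini-Hochberg adjustment over all genes. A fit with 3 groups had 3 residual degrees of freedom, all from siRIPK2, so the spread of each lone control is taken to equal theirs. A fit of siRIPK2 against both controls had 4, since it treats siNC and WT as replicates of 1 group although only siNC received a control siRNA. Alternatives were DESeq2 1.42.0, limma-voom (limma 3.58.1), RLE size factors, other filters and leaving out each library. Genes were named when they averaged at least 5 CPM, passed an adjusted p of 0.05, or had the 2 lowest p-values in a comparison. Genes from the related lists include SLBP, NPAT and CASP8AP2 and otherwise those with the lowest p against both controls. Other named genes were chosen after their values were seen. Sequence shared between genes was counted in stretches of 75 bases of GENCODE 29 transcripts. Some listed genes are not reported here and were left out of their lists. A list of 13 RNAs without a poly(A) tail was not analysed here.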

Additional observations from a re-analysis of the deposited data

Results flagged for a closer look

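Among the 4 siRIPK2 libraries, 80 values (histone genes, their sums and genes of the related lists) were examined for a library far from the others, by Dixon's criterion, which chance passes in about 5% of cases. The criterion was passed by 3 values. H2AC6 was at 40.9 CPM in siRIPK2_4, while the other siRIPK2 libraries were between 5.36 and 8.55 CPM. H2BC11 was at 5.66 CPM in siRIPK2_4, with the others between 1.39 and 1.64 CPM. The summed level of the H2A genes was 51.8 CPM in siRIPK2_4, with the others between 11.9 and 13.8 CPM, and it contains H2AC6. The number past the criterion was no more than chance gives.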

How the results depend on the processing

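Of 284 recomputed values over 36 results, 280 kept their side of the threshold or stayed within the spread used, and 4 reversed. For medians that spread was the SD among siRIPK2 libraries on the log2 scale, 0.35 against siNC (median 0.47) and 0.38 against WT (median 0.49). For the sums it was 1.02 for H2A and 0.84 for H2B. Such wide spreads make staying within them a weak check. Against both controls and without siRIPK2 replicate 4, the log2 fold change was -0.0032 for H2BC12, -0.083 for H1-2 and -0.90 for H2AC6. H2AC6 was also at -0.31 in limma-voom. The cause was not tested. Among the sums, which have no test, 7 values within 1 SD changed sign. Without siRIPK2 replicate 4, the log2 ratio of the siRIPK2 mean was -0.48 over siNC and -0.55 over WT for H2A (0.34 and 0.28 with all libraries), -0.05 and -0.08 for 6p22 (0.48 and 0.44), -0.12 over siNC for H1 (0.23) and -0.11 over WT for H4 (0.06). The H4 ratio was -0.0092 without replicate 2. Leaving out each library in turn gave -0.0032 to 0.80 for H2BC12, -0.083 to 0.59 for H1-2 and -0.90 to 0.53 for H2AC6. Over the same omissions the median of the tested histone genes ranged from 0.15 to 0.63 against siNC, from 0.39 to 0.74 against WT and from 0.15 to 0.67 against both controls, and 0 histone genes were called in each of these fits. DESeq2 gave no adjusted p for 3 histone genes against siNC and 8 against both controls. No paired analysis was possible because siNC and WT have 1 library each. With no filter on low counts the median for siNC against WT was 0.017, over 56 histone genes.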

Other observations

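H2AX, whose mRNA exists in both stem-loop and polyadenylated forms and which was chosen after its values were seen, was at 201, 112, 128 and 329 CPM in siRIPK2_1 to siRIPK2_4, against 247 CPM in siNC and 181 CPM in WT. It was highest in siRIPK2_4, as were most long-form histone genes, and lowest in siRIPK2_2. CENPA, the centromeric H3 variant, was at 27.4, 12.6, 21.3 and 34.9 CPM in siRIPK2, against 19.9 CPM in siNC and 22.25 CPM in WT. It too was highest in siRIPK2_4 and lowest in siRIPK2_2. ATRX, which acts with DAXX to deposit H3.3, was at 46.5, 33.9, 38.0 and 28.3 CPM in siRIPK2, against 10.9 CPM in siNC and 43.9 CPM in WT. The siNC value was the lowest of the 6, as it was for NPAT and CASP8AP2.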
